A study of Rattus norvegicus with 6 samples.

Results

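The peroxisome proliferator-activated receptors (PPARs) and their transcriptional partners were examined in kidney cortex (labelled renal cortex) from male Sprague-Dawley rats. The set held 6 of the 15645 genes that the array's probes name: Ppara, Ppard and Pparg, which encode the 3 PPARs, Rxra, which encodes a retinoid X receptor, and Ppargc1a and Ppargc1b, which encode the coactivators PGC-1 alpha and PGC-1 beta. A probe belonged to the set if its RefSeq accession named 1 of these genes, and 10 of the 61537 non-control probes on the array did so. Ppard had 3 probes, Ppara and Pparg 2 each, and Rxra, Ppargc1a and Ppargc1b 1 each. The genes were chosen with the difference between the groups already known, so their values are given as a description, without a test.

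The vehicle group was 3 rats given corn oil for 4 weeks, and the DNPT group was 3 rats given N,N'-dinitrosopentamethylenetetramine (DNPT), which belongs to the N-nitroso compounds, for 4 weeks at a dose of 200 mg/kg/day. All 6 rats were 5 weeks old when bought, ate a basal diet and lived under 12 h of light and 12 h of dark. Neither the hour of sampling nor the carrier of DNPT is given in the sources used here. Cy3-labelled cRNA of each rat was hybridised to its own 1-colour Agilent array, so n = 3 rats per group throughout, and precision is limited by that number of arrays. The vehicle rats and DNPT rat 1 shared slide 1 and a scan day, and DNPT rats 2 and 3 shared slide 2 and another scan day.

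PPARs are nuclear receptors that bind fatty acids and their derivatives. Each pairs with a retinoid X receptor on DNA and switches on genes for the uptake, transport, storage and oxidation of fatty acids, and PGC-1 coactivators are recruited to such pairs to raise transcription. The proximal tubule, which makes up most of the renal cortex, draws its energy largely from fatty acid oxidation, and PPAR alpha is known as a main regulator of that pathway there. PPAR delta is expressed in most tissues, and PPAR gamma is best known from fat cells.

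Probes well above background numbered 44730 to 45167 on vehicle arrays and 42116 to 43402 on DNPT arrays. The 75th percentile intensity was 1164 to 1330 on vehicle arrays and 950 to 1111 on DNPT arrays, so every DNPT array was dimmer, the one on slide 1 included. Arrays correlated with each other at 0.98 to 0.99 over all features. All 6 proximal tubule markers examined, among them Slc34a1 and Lrp2, and the podocyte marker Nphs1 were well above background on all 6 arrays. Of 6 adrenal markers, Cyp11b1, Cyp11b2 and Mc2r were well above background on no array, Star on 2, and Cyp17a1 and Cyp21a1 on all 6, with differences of -0.098 (SE 0.14) and -0.14 (SE 0.15). The fat cell marker Lep was well above background on none, and Adipoq, another fat cell marker, on all 6. Hepatocyte genes varied between rats of both groups. Their summed signal, in units of each array's 75th percentile, ran from 0.0948 to 2.53 in vehicle rats and from 0.0921 to 21.8 in DNPT rats, with DNPT rat 3 highest.

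To place the receptor and coactivator genes in the genome, the 250 bases before the start of transcription were read from a RefSeq promoter table of rat assembly GRCr8. It held 6 start sites for the genes other than Ppard, 2 of them for Pparg. The windows of Ppara and Ppargc1a are shown, the first for the receptor gene with the higher signal after DNPT and the second for its match to the cAMP response element. The Ppara window is chr7:118712357-118712606 and the Ppargc1a window is chr14:63634058-63634307, both on the plus strand. Capitals mark matches, on either strand, to the GC box (GGGCGG), the cAMP response element (TGACGTCA), the CCAAT box (CCAAT), the E-box (CACGTG), the D-box (TTATGNAA), the nuclear receptor half-site (AGGTCA) or the PPAR response element, a pair of such half-sites in the same orientation with 1 base between, which therefore also counts as a half-site.
Ppara: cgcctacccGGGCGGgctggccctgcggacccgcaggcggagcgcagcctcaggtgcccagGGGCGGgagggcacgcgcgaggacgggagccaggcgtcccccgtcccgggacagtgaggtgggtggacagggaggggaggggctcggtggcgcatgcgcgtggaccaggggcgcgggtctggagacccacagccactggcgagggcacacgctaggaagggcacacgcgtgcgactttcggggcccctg
Ppargc1a: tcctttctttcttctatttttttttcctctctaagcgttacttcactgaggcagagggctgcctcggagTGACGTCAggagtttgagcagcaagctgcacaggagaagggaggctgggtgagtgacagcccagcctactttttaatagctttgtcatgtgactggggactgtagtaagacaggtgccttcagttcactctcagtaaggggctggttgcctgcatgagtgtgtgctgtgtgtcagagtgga

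The Ppara window was 76.0% G or C and matched the GC box at 241 and 189 bases before the start, and matched none of the other motifs. The Ppargc1a window was 50.4% G or C and matched the cAMP response element at 181 bases before the start, and no other motif. The median over all 33469 windows of that length in the table was 51.2% G or C. Of those windows, 30.5% held the GC box, 1.59% the cAMP response element, 34.0% the CCAAT box, 5.59% the E-box, 3.28% the D-box, 14.1% the half-site and 0.0508% the PPAR response element. The Rxra window, the first of the 2 Pparg windows and the Ppargc1b window also held GC boxes, and the second Pparg window held a CCAAT box. These are matches of letters and no record of binding.

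All 10 probes were well above background on all 6 arrays, so each passed the filter on dim probes, and none of the 60 values was saturated or marked as an outlier. Each signal is given as log2 of the intensity over the array's 75th percentile, so a value of 0 equals that percentile and a difference of 1 is a factor of 2. Levels of different probes are not comparable, because each probe hybridises with its own efficiency. Differences are DNPT minus vehicle on the log2 scale, with the standard error (SE) of a limma fit over all 44305 probes that passed the filter. Because RNA came from whole tissue, fewer cells of a type and less RNA per cell cannot be told apart.

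Ppard had lower signal in DNPT rats on each of its 3 probes, and Ppara had higher signal on both of its probes. Signals of Pparg, Ppargc1a, Ppargc1b and Rxra overlapped between the groups. The groups did not overlap in 5 of the 10 probes. Over all probes tested the share was 19.8%, made up of 11.5% with DNPT higher and 8.28% with DNPT lower. As the set was chosen on this comparison, nothing is read from the difference between these shares.

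**Figure D1:**
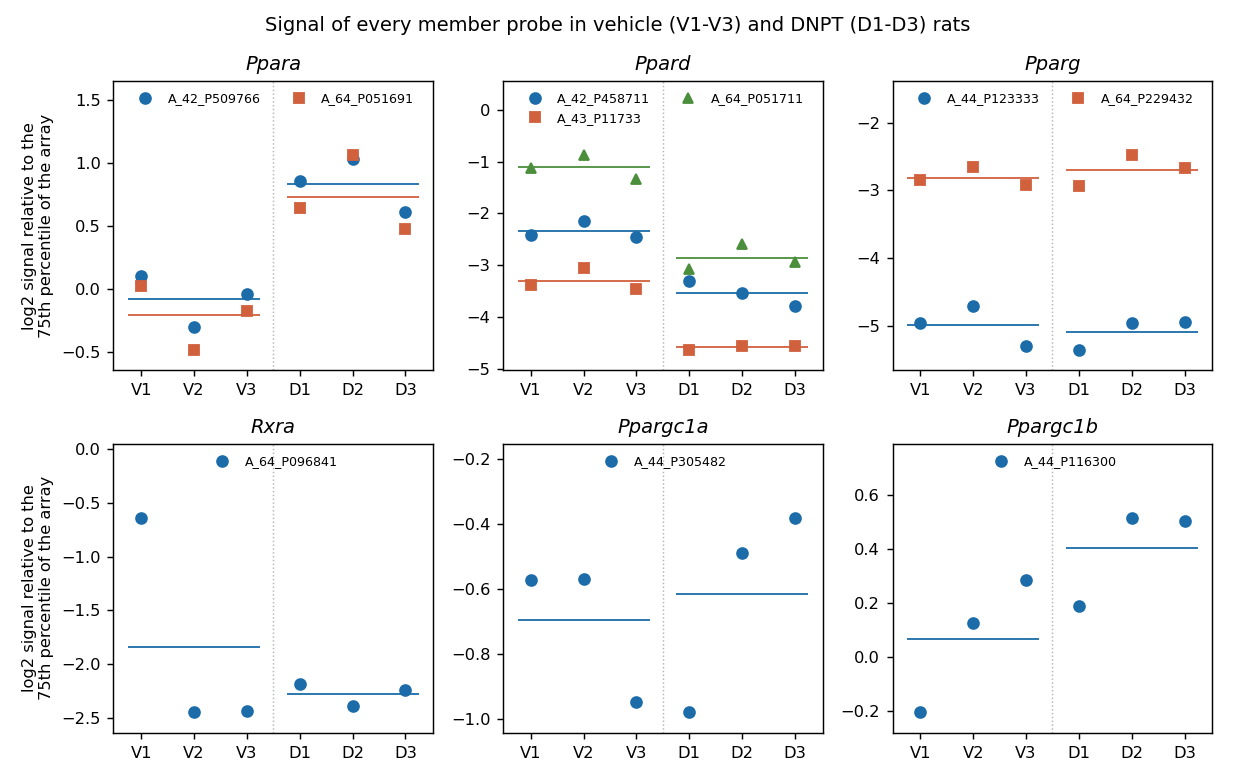
Signal of each of the 10 probes (log2 relative to the 75th percentile of the array) in vehicle rats V1 to V3 and DNPT rats D1 to D3; markers and colours tell the probes of a gene apart and horizontal lines are group means. The DNPT values lie above the vehicle values on both Ppara probes and below them on all 3 Ppard probes, and in the Rxra panel vehicle rat 1 stands apart at -0.64.

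Ppard encodes PPAR delta. On its brightest probe, A_64_P051711, the signal was -1.13, -0.87 and -1.33 in vehicle rats 1 to 3 and -3.06, -2.59 and -2.94 in DNPT rats 1 to 3. Every DNPT rat lay below every vehicle rat, with a gap of 1.26 between the groups. The means were -2.86 ± 0.25 (SD, n = 3) in DNPT and -1.11 ± 0.23 in vehicle rats, a difference of -1.75 (SE 0.18), or 3.37-fold lower. Among the 34915 features tested, each a gene or an unnamed probe, this was the 54th lowest difference.

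The second Ppard probe, A_43_P11733, had signals of -3.39, -3.06 and -3.45 in vehicle rats and -4.63, -4.55 and -4.56 in DNPT rats. The 3 DNPT rats were nearly level (SD 0.041), all below the vehicle rats, and the difference was -1.28 (SE 0.12). The other Ppard probe, A_42_P458711, had signals of -2.41, -2.15 and -2.45 in vehicle rats and -3.31, -3.53 and -3.78 in DNPT rats, again without overlap and with a difference of -1.20 (SE 0.15). The probes thus had the same direction and differed in size, from 2.3-fold to 3.37-fold lower. Vehicle rat 2 was the highest and vehicle rat 3 the lowest vehicle rat on all 3 probes, whereas the order of the DNPT rats varied with the probe. A log2 difference of -1 or below was found in 1.38% of all probes tested and in each Ppard probe.

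The size of the Ppard difference varied with the processing. In an alternative that started from the median spot signal, used normexp correction with an added offset of 50 and then quantile normalization, the differences were -1.42 for A_64_P051711, -0.78 for A_42_P458711 and -0.56 for A_43_P11733. Intensities of the last probe were 40.5 to 45.0 in DNPT rats and 106 to 159 in vehicle rats, of the order of the added offset. With quantile normalization alone the differences were -1.74, -1.18 and -1.25 for the same probes, and which of the other steps moved them was not tested. The part of the dimmer DNPT arrays in the Ppard values was not tested either. Ppara, described next, had higher signal on the same arrays, but its probes were brighter, at intensities of 952 to 2010. Those of the Ppard probes were 40.5 to 725. DNPT rat 1, the only DNPT rat on the slide of the vehicle rats, differed from the vehicle mean by -1.95, -1.33 and -0.97 on A_64_P051711, A_43_P11733 and A_42_P458711. Within slide 1 the Ppard difference rests on that 1 rat, whose array was also dimmer than each vehicle array.

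Ppara encodes PPAR alpha. On probe A_42_P509766 the signal was 0.11, -0.30 and -0.04 in vehicle rats 1 to 3 and 0.86, 1.03 and 0.61 in DNPT rats 1 to 3. All 3 DNPT rats lay above all 3 vehicle rats, DNPT rat 2 being the highest and vehicle rat 2 the lowest. The difference was 0.91 (SE 0.16), or 1.88-fold higher. A larger absolute difference was found in 2.98% of features, and a difference of 0.5 or more in 3.65% of all probes tested and in both Ppara probes. As the genes were chosen with the difference known, these shares and those given for Ppard are description only.

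Probe A_64_P051691 of Ppara gave 0.023, -0.48 and -0.17 in vehicle rats and 0.64, 1.06 and 0.48 in DNPT rats, with a difference of 0.94 (SE 0.20). The groups did not overlap here either, and the rats of each group came in the same order as on the first Ppara probe. The correlation of the 2 Ppara probes over the 6 arrays was 0.99, and 0.96 after subtraction of the group means. Among Ppard probes the correlations over the 6 arrays were 0.96 to 0.99, and 0.23 to 0.76 after that subtraction. The probes of a pair share their arrays and RNA, and the correlations with group means include the difference between groups.

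Within each array, the signal of Ppara probe A_42_P509766 minus that of Ppard probe A_64_P051711 does not depend on dividing an array by a constant. It was 1.24, 0.57 and 1.29 in vehicle rats and 3.92, 3.62 and 3.55 in DNPT rats. The 2 ranges lay far apart, with means of 1.03 ± 0.40 (SD, n = 3) and 3.69 ± 0.20, so the Ppara to Ppard signal ratio was 6.33-fold higher in DNPT rats. With the other Ppara probe it was 6.44-fold higher. These ratios use the Ppard probe with the largest difference. Against A_43_P11733 they were 4.56-fold and 4.65-fold, and against A_42_P458711 4.33-fold and 4.41-fold. After normexp correction and quantile normalization the 6 probe pairs gave 2.8-fold to 5.12-fold. The groups did not overlap for any pair in either processing. With percentile scaling that outcome was fixed, because every Ppara probe was higher and every Ppard probe lower in DNPT rats without overlap. After normexp correction 5 member probes also had groups without overlap. The ratios combine differences already given, for genes chosen with those differences known, and are no separate evidence.

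**Figure D2:**
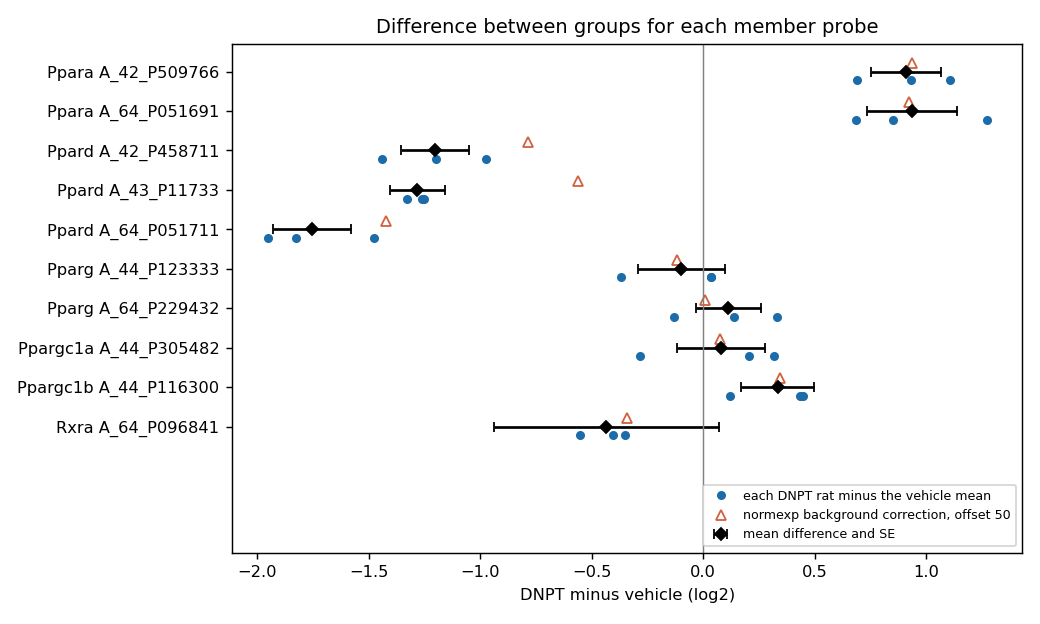
Difference between DNPT and vehicle rats (log2) for each probe of the set; diamonds and bars are the mean difference and its SE (n = 3 per group), filled circles are each DNPT rat minus the vehicle mean, and open triangles are the mean difference after normexp background correction with an offset of 50 and quantile normalization. Both Ppara probes lie near 0.9, the 3 Ppard probes lie between -1.75 and -1.20, and the triangles of Ppard are closer to 0.

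Pparg encodes PPAR gamma. Its probe A_64_P229432 had signals of -2.85, -2.66 and -2.92 in vehicle rats and -2.94, -2.48 and -2.67 in DNPT rats. The groups overlapped, with DNPT rat 1 the lowest and DNPT rat 2 the highest of all 6. The difference was 0.11 (SE 0.15).

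The dimmer Pparg probe, A_44_P123333, had intensities of 27.2 to 51.2 and a difference of -0.099 (SE 0.20). Its vehicle values of -5.30 to -4.70 enclosed 2 of the 3 DNPT values. DNPT rat 1, at -5.35, was the lowest of all 6 and lay close to vehicle rat 3. The 2 Pparg probes, which carry different transcript accessions, thus had differences of opposite sign, both smaller than their SE. The fat cell markers that passed the filter had a summed signal of 0.984 to 1.66 in vehicle rats and 0.960 to 1.52 in DNPT rats, ranges that overlap as those of Pparg do. Cfd had a difference of 0.33 (SE 0.29) and the other 4 had negative differences, among them Adipoq at -0.18 (SE 0.14). Plin1 had no probe by this naming, and Lep was not well above background on any array.

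Rxra encodes 1 of the retinoid X receptors, with which PPARs pair on DNA. Its only probe, A_64_P096841, had signals of -0.64, -2.45 and -2.43 in vehicle rats and -2.19, -2.39 and -2.24 in DNPT rats. Vehicle rat 1 stood far above the other 5 rats, which lay within 0.26 of one another, and the vehicle group had an SD of 1.04 against 0.11 in the DNPT group. The difference was -0.44 (SE 0.50), and without vehicle rat 1 it was 0.17. The high value was present in the raw median signal of the spot, 709 in vehicle rat 1 against 211 to 278.5 in the other rats, and the spot carried no outlier mark. No other Rxra probe was available to compare with it.

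Ppargc1a encodes PGC-1 alpha, a coactivator known for its role in mitochondrial biogenesis and in gluconeogenesis. Its probe A_44_P305482 had signals of -0.57, -0.57 and -0.95 in vehicle rats and -0.98, -0.49 and -0.38 in DNPT rats. One rat of each group was low, vehicle rat 3 and DNPT rat 1, and the groups overlapped. The difference was 0.080 (SE 0.20), and it was -0.28 for DNPT rat 1 alone, the value within slide 1, so its sign turned.

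Ppargc1b encodes PGC-1 beta, a close relative of PGC-1 alpha. Its probe A_44_P116300 had signals of -0.21, 0.13 and 0.28 in vehicle rats and 0.19, 0.52 and 0.50 in DNPT rats. DNPT rats 2 and 3 were above all vehicle rats, but DNPT rat 1 was below vehicle rat 3, so the groups overlapped. The difference was 0.34 (SE 0.16), 0.12 within slide 1 and 0.20 without vehicle rat 1. The 2 DNPT rats that were high were those on slide 2, which holds no vehicle rat, so slide and group cannot be told apart there.

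Genes around the receptors were described from 6 lists of PPAR targets, partners and regulators. In limma with Benjamini-Hochberg adjustment over all 34915 features, 0 features passed an adjusted p of 0.05 in either direction (0% called). At an unadjusted p under 0.05, 4219 features did, 6.02% higher and 6.07% lower in DNPT rats. That number was 2389 with slide as a fixed block, 2581 without vehicle rat 1, 2538 without vehicle rat 2 and 7300 without DNPT rat 1, and without DNPT rat 1 the adjusted test called 40 features higher and 574 lower. No list gene passed the adjusted test with all samples, nor in any of the fits that left out a sample. List counts below are at the unadjusted p, to be read against those shares, and the smallest adjusted p of any list gene named was 0.302.

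Of 44 PPAR targets in fatty acid handling, 43 passed the filter, 30 with positive and 13 with negative differences. Their median was 0.12, where that of all features was 0.013. An unadjusted p under 0.05 was reached by 2 targets higher and 2 lower, 4.65% each, against 6.02% and 6.07% of all features. These counts changed with single libraries. Without DNPT rat 1, 7 were higher and 2 lower, and without DNPT rat 2, 1 was higher and 6 lower, while 3034 features in all reached that p. Without any other single rat the counts were 1 and 1, and with slide as a block 0 and 2. The groups did not overlap in 5 targets higher and 2 lower, against 12% and 8.16% of all features. The list median was -0.019 within slide 1, 0.026 with quantile normalization, 0.0036 with normexp correction and 0.040 without DNPT rat 2. The sign of the list median thus turned within slide 1, where the DNPT group is 1 rat. The summed signal of the proximal tubule markers was 1298 to 1466 in vehicle rats and 1462 to 1723 in DNPT rats, with all 6 markers positive, and its part in the list was not tested.

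The target genes with the smallest p were Ucp2, Slc27a2 and Acaa1a. Ucp2, a mitochondrial inner membrane carrier, was at -0.69, -0.47 and -0.59 in vehicle rats and at -0.99, -1.16 and -0.98 in DNPT rats, a difference of -0.46 (SE 0.10, limma adjusted p = 0.318) without overlap. Slc27a2, a fatty acid transporter and very long chain acyl-CoA synthetase, was 0.46 higher (SE 0.12, limma adjusted p = 0.355), at 6.52 to 6.88 in vehicle and 7.11 to 7.23 in DNPT rats. Acaa1a, a peroxisomal thiolase, had a difference of 0.31 (SE 0.11) and all 3 of its probes were positive, from 0.31 to 0.44. Plin2, a coat protein of lipid droplets, was the fourth gene at that p, with a difference of -0.38 (SE 0.15). None of the 4 passed after adjustment.

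The brightest targets, Cyp4a2 and Cyp4a8, which encode fatty acid omega-hydroxylases, had differences of 0.22 (SE 0.13) and 0.16 (SE 0.093). The probes of Cyp4a8 ranged from -0.19 to 0.16, and those of Cyp4a2 from 0.22 to 0.34. Of targets picked for their textbook role after their values were seen, Cpt1a, which admits fatty acids to mitochondria, was at 0.32 (SE 0.30). Pdk4, which shuts off pyruvate oxidation, was at -0.66 (SE 0.43) and Angptl4, an inhibitor of lipoprotein lipase, at -0.36 (SE 0.37). In these 3 genes the groups overlapped, and signs were mixed. Fabp1, a fatty acid binding protein that liver makes in bulk, had the largest positive difference of the list, 1.30 (SE 1.70). Its signal was 1.63 in DNPT rat 3 and -4.86 to -1.54 in the other 5 rats, and Alb, made by hepatocytes, was likewise highest in DNPT rat 3 at 3.76. The 4 hepatocyte markers tested had positive differences, and Cps1 and Tat were well above background on no array. The part of hepatocyte RNA in the Fabp1 value was not tested.

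**Figure D3:**
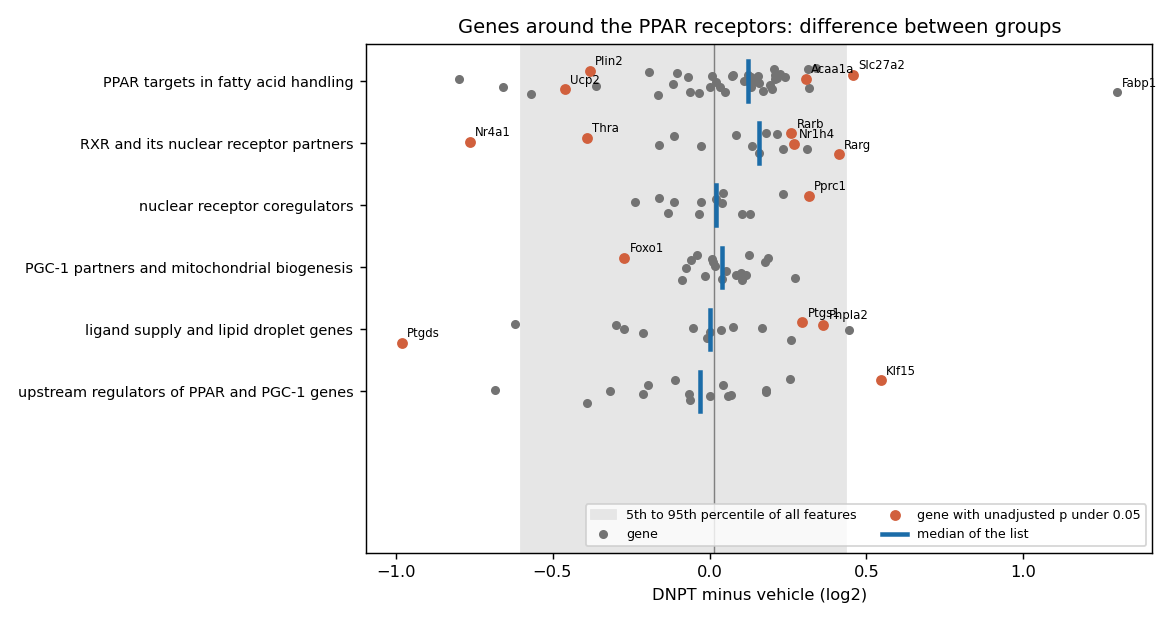
Differences between DNPT and vehicle rats (log2) for each tested gene of 6 lists around the PPAR receptors; dots are genes, orange dots those with an unadjusted limma p under 0.05, blue bars list medians, the vertical line the median of all features (0.013), and the grey band spans the 5th to 95th percentile of all features (-0.60 to 0.44). List medians run from -0.029 to 0.16, and most genes lie inside the band.

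Nuclear receptors that pair with retinoid X receptors, or are retinoid X receptors themselves, had differences in both directions, from -0.76 to 0.41. Of 15 tested, 3 were higher (20.0%) and 2 lower (13.3%) at the unadjusted p, and the median was 0.16. With the mean of a gene's probes, 1 was higher and the median was 0.074, and with an intensity trend 6 were higher. Leaving out 1 rat gave 2 to 4 higher and 1 or 2 lower, with 1 lower without DNPT rat 3, vehicle rat 1 or vehicle rat 2. Rarg, a retinoic acid receptor, was 0.41 higher (SE 0.086, limma adjusted p = 0.302) on its brighter probe, but its other probe was at -0.26. Nr1h4, the bile acid receptor FXR, was at 4.77 to 4.88 in vehicle and 5.06 to 5.15 in DNPT rats, a difference of 0.27 (SE 0.078), and its probes ranged from 0.040 to 0.27. Rarb, another retinoic acid receptor, was at 0.26 (SE 0.10) on its brighter probe, but its other probe was at -0.15. Thra, a thyroid hormone receptor, was at -0.39 (SE 0.085, limma adjusted p = 0.321), with vehicle rats at 0.61 to 0.78 and DNPT rats at 0.26 to 0.37. Nr4a1, an orphan receptor induced as an immediate early gene, was at -0.76 (SE 0.25). The paralogues of Rxra, Rxrb and Rxrg, had differences of 0.083 (SE 0.076) and -0.16 (SE 0.34), and the bright Nr1h3, an oxysterol receptor, was at -0.027 (SE 0.085).

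Of 21 coregulators of nuclear receptors, 13 had a probe by this naming and all 13 were tested. Pprc1, another member of the PGC-1 family, was the only one at the unadjusted p, with a difference of 0.32 (SE 0.10) and signals of -0.67 to -0.45 in vehicle and -0.37 to -0.17 in DNPT rats. It was not among such genes without vehicle rat 1, without vehicle rat 2 or without DNPT rat 1 or 2. The coactivators Ncoa2 and Carm1 were at -0.24 (SE 0.15) and -0.16 (SE 0.097), but the other Carm1 probe was at 0.074. The corepressor Ncor1, the brightest member, was at -0.033 (SE 0.099), and the mitochondrial deacetylase Sirt3 at 0.23 (SE 0.44). The list median was 0.021.

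Partners of PGC-1 and genes of mitochondrial biogenesis differed little. Of 19 tested, 0 were higher and 1 was lower at the unadjusted p in limma, and the median was 0.039. Foxo1, a forkhead factor that works with PGC-1 alpha on gluconeogenic genes, was the lower one, at -0.27 (SE 0.10). No list gene was lower at that p without vehicle rat 1, vehicle rat 2, DNPT rat 2 or DNPT rat 3, with median scaling, or with slide or replicate number as a block. Polg, the mitochondrial DNA polymerase, was at 0.27 (SE 0.13) and Polrmt, the mitochondrial RNA polymerase, at 0.19 (SE 0.10). The bright genes Cycs, which encodes cytochrome c, and Atp5f1b, a subunit of ATP synthase, were at 0.12 (SE 0.10) and 0.016 (SE 0.074).

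Among genes of lipid droplets and ligand supply, 15 of 19 were tested, 2 were higher (13.3%) and 1 lower (6.67%) at the unadjusted p, and the median was 0.001. With slide as a block the median was -0.11, with 1 higher and 2 lower. Without vehicle rat 3 or DNPT rat 1, 1 was higher, and without vehicle rat 1, vehicle rat 2 or DNPT rat 2, 2 were lower. Ptgds, a prostaglandin D synthase, was at 4.66, 4.83 and 4.24 in vehicle rats and at 3.18, 3.67 and 3.94 in DNPT rats, a difference of -0.98 (SE 0.25, limma adjusted p = 0.353). Pnpla2, the lipase that opens triglyceride breakdown, was 0.36 higher (SE 0.099), with both probes positive, and the lipase Mgll was at -0.27 (SE 0.11). Ptgs1, a cyclooxygenase, was at 0.30 (SE 0.11) on its brighter probe, but its other probe was at -0.81. Upstream regulators had a median of -0.029, with 1 of 16 higher (6.25%) and 0 lower in limma. A single lower gene appeared without vehicle rat 2 or 3 and without DNPT rat 1 or 2. The higher one was Klf15, a factor of amino acid and glucose metabolism, at 0.55 (SE 0.15, limma adjusted p = 0.356). Prkaa1, a catalytic subunit of the energy sensor AMPK, was at -0.32 (SE 0.13) and Srebf2, a regulator of sterol synthesis, at 0.18 (SE 0.076). The probes of Srebf2 ranged from -0.009 to 0.18. The bright Mapk14 and Prkab1 were at 0.002 (SE 0.14) and 0.044 (SE 0.077).

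Genes whose signal over the 6 arrays was most like that of Ppard probe A_64_P051711 were sought among 11822 other named genes well above background on all arrays. Pearson's r was highest for Senp2 (0.99), Mapkapk2 (0.99), Ugt2b37 (0.99), Sytl3 (0.99) and Nfil3 (0.99). The likeness is one of shape and not of size. The difference was -0.26 for Senp2, a SUMO protease, and -0.31 for Mapkapk2, a stress kinase, but -1.20 for Ugt2b37, a glucuronosyltransferase, -0.79 for Sytl3 and -1.93 for Nfil3, a transcriptional repressor known from the circadian clock. Nfil3 was thus the only one of the 5 with a difference at least as large as that of Ppard.

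The lowest correlations with Ppard, from -0.996 to -0.989, were those of Miip, Rmdn1, Mgme1, Nipa1 and Ppp1r12b, whose differences were 0.20 to 0.39. An r above 0.9 was found for 145 genes (1.23%) and below -0.9 for 372 genes (3.15%). With 6 arrays in 2 groups, the difference between groups makes up most of each such r, and the arrays share slide and scan.

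**Figure D4:**
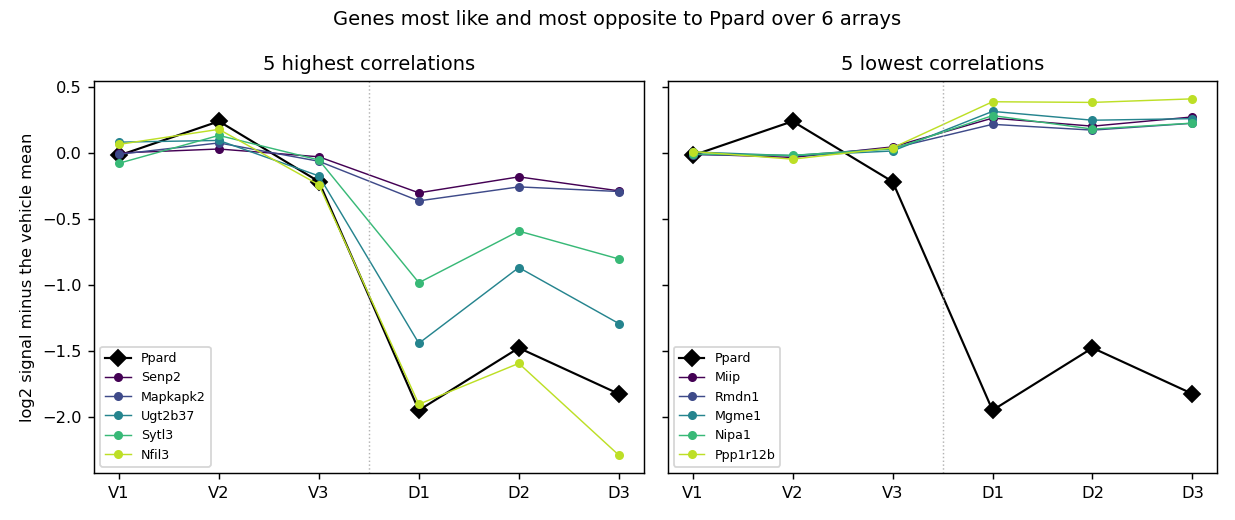
Signal minus the vehicle mean (log2) in vehicle rats V1 to V3 and DNPT rats D1 to D3 for Ppard probe A_64_P051711 (black diamonds) and the 5 genes with the highest (left) and the 5 with the lowest (right) Pearson correlation to it over 6 arrays; lines only join the values of a gene. Nfil3 reaches a depth like that of Ppard, and the 5 genes on the right have mean differences of 0.20 to 0.39.

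For the other members the most alike genes were different ones. Ppara was followed most closely by C10h1orf35, Rc3h2 and Polr2l (r of 0.99 each), with differences of 0.17 to 0.25, and 278 genes (2.35%) had an r above 0.9 with it. Pparg was followed by Cdc42bpg, Ppp1r21 and Sephs2, with r of 0.98 to 0.99. Ppargc1a was followed by Aimp2, Raly and Tipin (r of 0.992 to 0.995), which were likewise low in vehicle rat 3 and DNPT rat 1, and 328 genes (2.77%) had an r above 0.9 with it. Ppargc1b was followed by Arpc3, Ppp2r5c and Chchd3 (r of 0.99 each), with differences of 0.17 to 0.21.

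Rxra had the fewest genes with an r above 0.9, 29 (0.245%), among them C1ql3 and Adgra2, which also had their highest value in vehicle rat 1. Between members, the brighter Pparg probe and Ppargc1a had an r of 0.79, and the dimmer Pparg probe and Ppargc1a an r of 0.83, over the same 6 arrays. Ppara and Ppard had r of -0.96 to -0.86, which after subtraction of the group means ran from -0.59 to 0.19. The r over all arrays thus includes the difference between groups, with which known these genes were chosen. After the subtraction its sign varied with the probe pair. With 6 arrays it does not settle whether Ppara and Ppard ran opposite among the rats of a group.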

How the data were processed

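Messenger RNA of renal cortex was measured in 6 rats, 3 per group, with 1-colour arrays. Scans were read with Agilent Feature Extraction 10.7, per the submitters' processing notes. A background-corrected intensity per spot was taken from each deposited scanner file, per the file headers. The deposited value table holds a ratio, each array's intensity divided by a constant of 100.09% to 100.48% of its 75th percentile, with column medians of 0.112 to 0.116, no centring and the same direction, as set against the scanner values; no source used here gives the step that made it. Intensities were divided by the array's 75th percentile over non-control probes and log2 transformed. Control spots and 113 values marked as outliers were left out.

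Probes were named by matching RefSeq accessions without versions to a RefSeq gene table (GRCr8), from which no coordinates were taken. Of 61537 probes, 28206 matched 1 gene, 0 several and 33331 none. The files hold no column of gene names. Tests covered the 44305 probes that 3 or more arrays had well above background and that kept 2 values per group. A gene was represented by its tested probe with the highest mean, which left 34915 features, 12687 of them named genes. Groups were compared by limma 3.58.1 in R 4.3.3 (lmFit, eBayes, two-sided, no covariates) with Benjamini-Hochberg adjustment at 0.05, and the fit was tested on simulated data. Python 3.11.15 with pandas 2.3.3 and matplotlib 3.10.9 drew the figures.

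The members, lists and alternatives were chosen with earlier results of these data known. Named were every member probe, per list the 3 genes with the smallest p and the 2 brightest, the genes with the 5 highest and 5 lowest correlations to Ppard, and the 3 highest for each other member. Other genes were named after their values were seen, and a few results are not reported here. Per the labels' protocols each group was 3 animals. Alternatives were other scalings, normexp correction (on the median signal of spots), the value table, filters, probe rules, an intensity trend, a block for replicate number or for slide, the slide 1 arrays alone and each sample left out. The within-array differences for all Ppara and Ppard probe pairs, and after normexp correction, were added after seeing the data.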

Additional observations from a re-analysis of the deposited data

How the results depend on the processing

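Of 14 alternatives for each member probe, all kept Ppara higher and Ppard lower on every probe, and Ppargc1b higher. Signs turned in 2 for each Pparg probe, 4 for Ppargc1a and 1 for Rxra. The alternatives are not 14 separate checks. For Ppara and Ppard, whose groups did not overlap, some signs were fixed in advance. They could not turn with a sample left out, on slide 1 alone or with the slide block. The block for replicate number and the filter for signal well above background on all 6 arrays returned the main differences. The slide block and slide 1 alone gave the same difference as each other, and the value table is nearly the main scaling. The groups of 5 member probes did not overlap in the fits with all samples. Leaving out samples cannot make such groups overlap, so that number could not fall in fits on fewer samples. On slide 1 alone, where the DNPT group is 1 rat, the number was 8, and with each sample left out it was 5 to 7.

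The adjusted limma test, which called 0 features, called 2 unnamed probes with normexp correction and 1 unnamed probe with slide as a fixed block. It called 1 gene, Fam111a, on slide 1 alone. With each sample left out it called 0 to 614: 3 features (Crygd, Cryga and an unnamed probe) without vehicle replicate 2 and 614 without DNPT replicate 1. At an unadjusted p under 0.05, 4219 features became 8756 without a filter on dim probes, 2389 with slide as a fixed block and 2708 on slide 1 alone, and with each sample left out 2538 to 7300. Same-numbered rats are separate animals, and their deviations from the group means correlated at -0.18, -0.059 and -0.18, so the numbers do not pair them. With replicate number as a block, 3090 reached it and 0 features were called. No alternative called a gene of the 6 pathway lists. Fits with slide as a block or slide 1 alone rest on DNPT rat 1 against 3 vehicle rats and assume that it varies like the other samples.

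The cause of these differences was not tested. Low signal limits Ppard probe A_43_P11733 in DNPT rats and Pparg probe A_44_P123333 in all rats, with intensities near the offset of 50. Ppard probe A_42_P458711 was also dim in DNPT rats, at intensities of 72.5 to 112. Its difference was -1.20 in the main fit and -0.78 with normexp correction and quantile normalization. Rxra, Ppargc1a and Ppargc1b rest on 1 probe each.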
